A study of Mus musculus with 4 samples.

Results

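The genes described here are those that separated mouse marrow samples lacking Foxo3a from samples that kept it. For each gene the mean of the 2 Foxo3a-null arrays was set against the mean of the 2 Foxo3a-intact arrays. A gene was kept when both null arrays lay above, or both lay below, both intact arrays. Of 22180 genes with a probe set of their own, 12041 reached a floor of 5.51 on the log2 signal scale on at least 1 array. Of those 12041 genes, 4234 were separated in this way (35.2%), 1679 of them higher (13.9%) and 2555 lower (21.2%) on the null arrays. That the sides of these genes do not overlap is how they were chosen, so it is not a result. Lower genes made up 60.3% of the separated genes, but 73.6% with each array centred on its median and 53.3% after cyclic loess normalisation, so the balance of the directions depends on the scaling.

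The study measured RNA from marrow cells of 2-month-old mice on Affymetrix Mouse Gene 2.0 ST arrays, which probe transcripts along their length. Each of 4 genotypes had 1 array: wild type (WT), loss of Fancd2 (Fancd2KO), loss of Foxo3a (Foxo3aKO) and loss of both (DKO). The intact side was therefore WT and Fancd2KO, and the null side Foxo3aKO and DKO, so each side held 1 array with Fancd2 and 1 array without it. No treatment is named in the labels. Cells were mononuclear marrow cells of femurs and tibias, sorted for c-Kit and Sca-1 and against CD34 and the lineage antigens, and are called SLAM cells. The labels list neither CD150 nor CD48. The alleles, the sex of the mice and the number of mice or cells behind each array are not given in the sources used here. With 1 array per genotype, p-values do not measure the spread between samples of a genotype, and they concern these 4 samples only.

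FOXO3 is a forkhead transcription factor that the PI3K-AKT pathway holds outside the nucleus when growth factors are present. Inside the nucleus it drives genes that slow the cell cycle, remove reactive oxygen species and sustain autophagy. Mouse haematopoietic stem cells are known to need it for quiescence and stress resistance. FANCD2 is the protein that the Fanconi anaemia pathway marks with ubiquitin at blocked replication forks.

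No single gene passed a test. The limma fit with Foxo3a and Fancd2 status as terms had 1 residual degree of freedom, and it called 0 of 12041 genes at an adjusted p under 0.05 (0.0%). Its smallest Benjamini-Hochberg adjusted p was 0.919. At an unadjusted p under 0.05 it held 546 genes (4.53%), 207 higher and 339 lower. With Foxo3a status as the only term the count was again 0, with 208 genes higher and 398 lower at an unadjusted p under 0.05. An exact permutation test of 2 arrays against 2 cannot give a two-sided p below 0.333. The differences below are therefore descriptions of these 4 arrays. The standard errors (SE) come from the limma fit, whose residual is how far Foxo3aKO minus WT and DKO minus Fancd2KO differ, moderated across genes. They do not measure the spread between samples of a genotype.

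The arrays themselves were alike in distribution, with Pearson correlations over all probe sets from 0.9647 to 0.9692. The 2 Foxo3a-null arrays correlated with each other at 0.9655 and the 2 intact arrays at 0.9647, within the range of 0.9647 to 0.9692 over the pairs of opposite sides. Foxo3 itself read 6.62 on the WT array, 6.72 on Fancd2KO, 6.64 on Foxo3aKO and 6.51 on DKO, a difference of -0.09 ± 0.19 (SE). Those values overlapped. Fancd2 read 6.56 on WT and 6.67 on Foxo3aKO, against 6.08 on Fancd2KO and 5.84 on DKO. Where the probes lie relative to the deleted parts of the genes is not given in the sources used here, so the Foxo3 signal does not check the labels. Of the genes behind the gate, Kit read 10.41 to 10.67 on all arrays and Slamf1, which encodes CD150, 7.25 to 8.36. Cd48 read 7.5 to 8.7. Cd34 read 9.67 to 10.79 in spite of the CD34-negative gate. Transcripts of the myeloid lineage antigens Itgam (8.86 to 10.46) and Ly6g (7.96 to 10.47) were bright on all 4 arrays. Those of the T cell antigens Cd3e (4.8 to 5.8), Cd4 (4.9 to 5.6) and Cd8a (5.2 to 5.6) were near or under the floor. Xist (10.18 to 11.06) and the Y-linked Eif2s3y (7.92 to 8.81) were both above the floor on every array.

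Sequences are shown for 2 sets of members, because they let the sequence be read beside the values: microRNA loci that share a seed but not a difference, and genes whose start regions hold a motif searched for. They are RefSeq sequences on GRCm38.p6, written 5′ to 3′. In the microRNAs, capitals mark the seed, bases 2 to 8 of the mature strand. The array probes the locus or hairpin, not the mature strand.
mmu-miR-99a-5p: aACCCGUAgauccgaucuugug
mmu-miR-99b-5p: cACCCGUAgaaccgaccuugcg
mmu-miR-17-5p: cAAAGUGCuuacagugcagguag
mmu-miR-20a-5p: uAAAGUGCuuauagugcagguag
mmu-miR-18a-5p: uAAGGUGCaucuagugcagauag
The first pair share the seed ACCCGUA and the next pair the seed AAAGUGC, while miR-18a differs from these with the seed AAGGUGC.

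In the gene sequences, capitals mark the motif. For Fcgr4 and Bcl2a1a, genes of the higher side, the 250 bases before the start site are shown, and the motif is GAGGAAGT or its reverse complement ACTTCCTC, the core that the myeloid factor PU.1 is known to bind. For Sesn1, a gene of the lower side, 30 bases around the forkhead core are shown. It begins 22 bases after the start site and reads TGTTTAC on this strand.
Fcgr4, chr1:171018676-171018925, plus strand: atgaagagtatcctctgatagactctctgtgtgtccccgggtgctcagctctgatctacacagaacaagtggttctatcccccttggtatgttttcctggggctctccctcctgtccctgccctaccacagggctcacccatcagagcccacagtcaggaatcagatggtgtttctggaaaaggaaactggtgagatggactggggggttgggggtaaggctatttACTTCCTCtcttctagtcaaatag
Bcl2a1a, chr9:88956670-88956919, plus strand: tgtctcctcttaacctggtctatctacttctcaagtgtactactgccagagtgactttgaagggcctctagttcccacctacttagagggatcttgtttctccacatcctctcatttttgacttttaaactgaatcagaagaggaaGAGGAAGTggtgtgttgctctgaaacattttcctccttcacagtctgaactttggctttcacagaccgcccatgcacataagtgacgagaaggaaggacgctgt
Sesn1, chr10:41810584-41810613, plus strand: agaaccttctacTGTTTACcagccttttgg

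Among the separated genes, 87 differed by at least 2-fold in the mean, 61 higher (0.507% of the 12041) and 26 lower (0.216%). The 61 higher genes had a median difference of 1.357 log2 and a gap between the sides of 0.018 to 1.956 log2. The 26 lower genes had a median size of 1.15 log2 and a gap of 0.049 to 1.21 log2. Of the 61, 30 had at least 1 array under the floor, and 45 remained 2-fold with such signals raised to the floor. The same counts for the 26 lower genes were 9 and 20. Leaving out 1 array makes the rule looser, 2 arrays against 1, and the counts were then larger: 121 higher and 85 lower without WT, 112 and 115 without Fancd2KO, 130 and 109 without Foxo3aKO, and 173 and 49 without DKO. A limma fit with 1 array left out has no Fancd2 term and sets 2 genotypes against 1 array, so its calls are not given. Without Foxo3aKO, for example, the null side is DKO alone, which lacks Fancd2 as well.

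Of the 61 higher genes, which are 0.507% of the 12041, 12 stood on the list of monocyte and macrophage markers. That list held 36 of the 12041 genes, some of which an earlier reading of these data had already named. The leading genes were C-type lectins, Fc receptors and signal-regulatory receptors of myeloid cells, brightest on the DKO array. Clec4a3, a C-type lectin receptor of myeloid cells, read 7.17 on WT, 6.40 on Fancd2KO, 8.44 on Foxo3aKO and 11.17 on DKO. Its difference was 3.02 ± 0.79 log2 (SE, 2 arrays a side), or 8.13-fold. Clec4a1, another lectin of the same cluster, read 6.42, 5.65, 7.27 and 10.09 (difference 2.64 ± 0.81), in the order WT, Fancd2KO, Foxo3aKO, DKO that is kept below. In both genes DKO stood far above the other arrays, and Foxo3aKO lay by a smaller step above the intact ones.

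Fcgr4, an activating Fc receptor for IgG, read 5.90 on WT, 5.71 on Fancd2KO, 6.78 on Foxo3aKO and 9.97 on DKO (difference 2.57 ± 0.77). Cd300e, an activating receptor of monocytes, read 5.48, 5.95, 6.04 and 9.13 (1.87 ± 0.61), so that Foxo3aKO barely cleared the higher intact array. Adgre1, which encodes the macrophage antigen F4/80, read 6.62, 5.45, 6.86 and 8.39 (1.59 ± 0.62). The DKO array held the high value in all 3 genes. Bcl2a1a, an anti-apoptotic relative of BCL2, read 4.93, 4.78, 5.68 and 8.05 (2.01 ± 0.60). Its intact values were under the floor, and its difference was 1.36 log2 with those raised to it. Bcl2a1a belongs to a family of near-identical copies, so its own value is uncertain. Itgax, the integrin chain CD11c, read 4.73, 4.62, 5.28 and 7.10 (1.52 ± 0.50), with all arrays but DKO under the floor. The Itgax difference was 0.80 log2 with those raised to it. Hpgd, which breaks down prostaglandins, read 6.16, 5.37, 6.25 and 8.31 (1.51 ± 0.66).

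Other genes of the higher side had wide gaps between the sides, some with the null arrays close together and some with DKO higher. Pilrb1, an activating immunoglobulin-like receptor, read 6.24 on WT, 6.28 on Fancd2KO, 8.14 on Foxo3aKO and 8.05 on DKO. Its difference was 1.84 ± 0.19 log2, with 1.77 log2 between the sides. Sirpb1c, a signal-regulatory receptor of myeloid cells, had the widest gap among the genes that could be named, and read 4.38, 4.38, 6.34 and 6.91 (difference 2.25 ± 0.29). Its intact values were under the floor, and its difference was 1.12 log2 with those raised to it. Sirpb1a, of the same family, read 6.49, 6.88, 7.81 and 9.16 (1.80 ± 0.28). The probes of such a family can share targets, so these are not independent measurements.

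Ly86, the MD-1 protein that pairs with the receptor RP105, read 6.81, 6.21, 7.95 and 7.84 (1.39 ± 0.21). Tlr8, an endosomal sensor of RNA, read 5.15, 4.36, 6.41 and 6.48 (1.69 ± 0.31). Slc11a1, a metal transporter of phagosomes, read 5.74, 5.32, 6.83 and 7.30 (1.53 ± 0.28). In these 3 genes no null array came within 1 log2 of an intact array. The intact values of Tlr8 were under the floor, however, and its difference was 0.94 log2 with those raised to it. Cd300c2 read 5.73, 5.60, 6.87 and 7.35 (1.45 ± 0.24). Klra17, a lectin-like receptor, read 5.67, 5.66, 7.13 and 6.83 (1.32 ± 0.21). P2ry6, a receptor for UDP, read 5.57, 5.60, 6.51 and 7.17 (1.26 ± 0.24). Their WT and Fancd2KO values nearly coincided. Themis2, a signalling adaptor of B cells and macrophages, read 8.36, 8.10, 9.29 and 9.34 (1.08 ± 0.19). L1cam, a neural adhesion molecule, read 5.99, 6.53, 7.76 and 7.49 (1.37 ± 0.26).

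**Figure D1:**
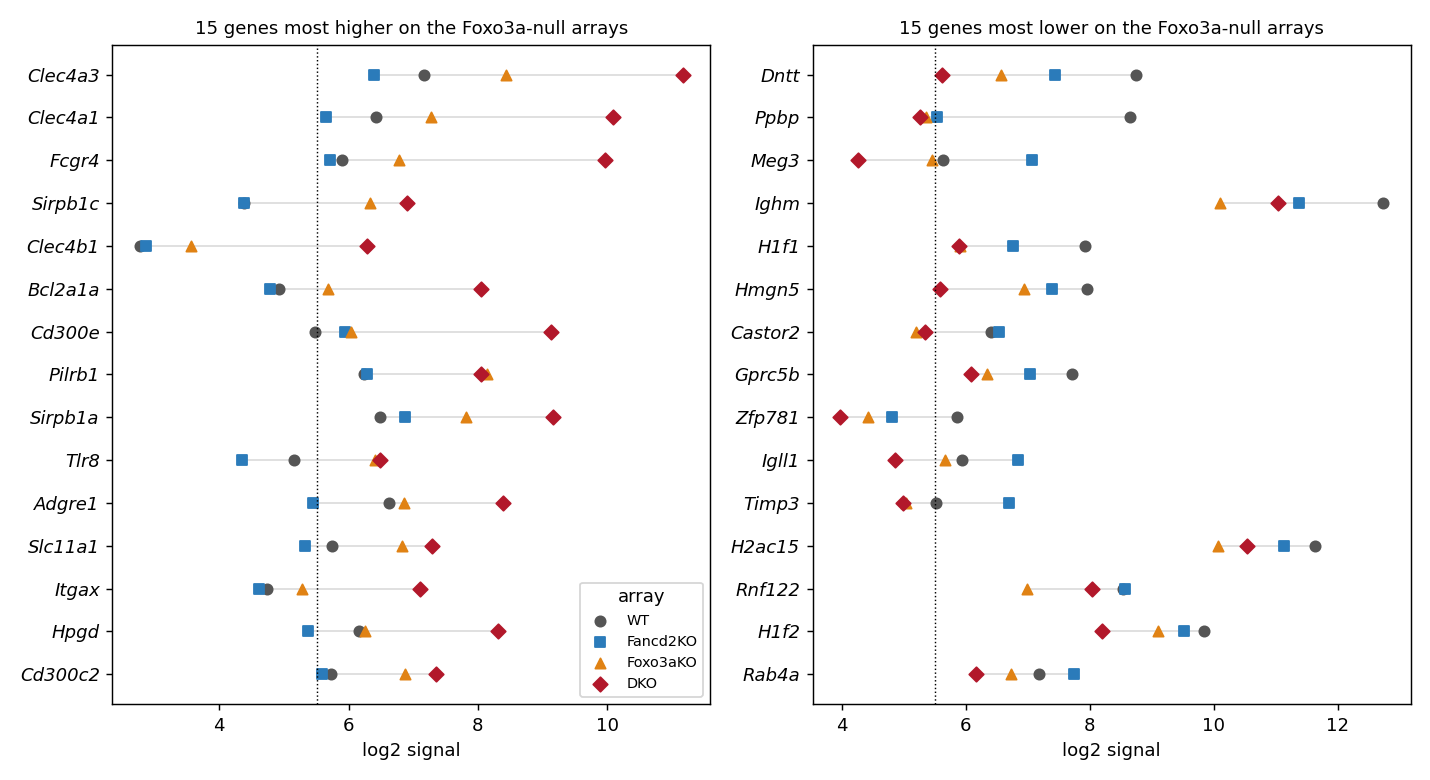
Log2 signal (x axis) of the 15 named genes that differed most in each direction (y axis), with 1 point for each of the 4 arrays and a dotted line at the floor of 5.51. For Clec4a3, Clec4a1 and Fcgr4 the DKO point lies far to the right of the others, while for Pilrb1 the Foxo3aKO (8.14) and DKO (8.05) points fall together; on the right, the WT point of Ppbp (8.66) stands alone.

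The lower side was led by genes of early B-lymphoid cells, linker histones and a platelet chemokine. Dntt, the terminal transferase that adds bases to rearranging antigen receptor genes, read 8.74 on WT, 7.44 on Fancd2KO, 6.57 on Foxo3aKO and 5.62 on DKO. Its difference was -2.0 ± 0.20 log2, or 3.99-fold lower. The order of the arrays was WT, Fancd2KO, Foxo3aKO, DKO from high to low. Ighm, the heavy chain constant region of IgM, read 12.73, 11.38, 10.09 and 11.04 (-1.49 ± 0.52). Igll1, a surrogate light chain of pre-B cells, read 5.94, 6.85, 5.66 and 4.87 (-1.13 ± 0.44). The DKO value of Igll1 was under the floor, and the difference was -0.81 log2 with it raised to the floor. In both genes the arrays within each side differed by more than the gap between the sides, with WT highest and Foxo3aKO lowest for Ighm, and Fancd2KO highest and DKO lowest for Igll1. These Ighm values are of its brightest probe set, and its other probe sets were not alike. For example, 1 was lower at 8.3, 6.3, 4.7 and 4.4 (-2.74), and another overlapped at 6.3, 5.6, 5.6 and 6.3 (0.002). Antigen receptor segments were counted but not named by rule. The largest of all lower differences was in such a segment, of the kappa light chain, at 12.59, 11.72, 7.18 and 11.14 (-3.00), and Foxo3aKO alone was far down.

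H1f1 and H1f2 are linker histones, which close the nucleosome. H1f1 read 7.92 on WT, 6.77 on Fancd2KO, 5.91 on Foxo3aKO and 5.89 on DKO (-1.45 ± 0.31). H1f2 read 9.84, 9.53, 9.10 and 8.20 (-1.03 ± 0.21). H2ac15, a core histone, read 11.62, 11.13, 10.06 and 10.54 (-1.08 ± 0.25). WT was the highest array in all 3. Hmgn5, a nucleosome-binding protein that counters linker histones, read 7.96, 7.39, 6.94 and 5.59 (-1.41 ± 0.25). Castor2, a homologue of the arginine sensor of mTORC1, read 6.41, 6.53, 5.20 and 5.34 (-1.21 ± 0.22), the null values being under the floor. With those raised to it, the difference was -0.97 log2. Castor2 had the 2 arrays of each side close together. Rab4a, a GTPase of receptor recycling, read 7.19, 7.75, 6.73 and 6.17 (-1.02 ± 0.31).

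Ppbp, a platelet chemokine precursor, read 8.66 on WT but 5.55 on Fancd2KO, 5.37 on Foxo3aKO and 5.27 on DKO (-1.79 ± 0.69). WT alone was high, so the separation of Ppbp amounts to 0.18 log2 between Fancd2KO and Foxo3aKO. Meg3, an imprinted long non-coding RNA, read 5.64, 7.06, 5.46 and 4.26 (-1.49 ± 0.63), with Fancd2KO alone high and the null values under the floor. With those raised to it, the difference of Meg3 was -0.84 log2. Timp3, a metalloproteinase inhibitor, read 5.53, 6.71, 5.04 and 5.0 (-1.10 ± 0.37). Its null values were under the floor, and its difference was -0.61 log2 with those raised to it. Smaller differences with close arrays were seen in Aimp1, a scaffold of tRNA synthetases, at 9.15, 9.19, 8.36 and 8.25 (-0.86 ± 0.18). Pcp4l1 likewise read 7.93, 7.82, 7.08 and 7.04 (-0.81 ± 0.18). Both were named for the width of their gap. At the threshold of separation itself, Cenpf was just inside on the higher side with a gap of 0.0001 log2 and Abcc6 just outside. On the lower side Ccdc163 was just inside with a gap of 0.0001 log2 and Amer1 just outside.

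Foxo3a loss was measured in the study by 2 pairs of arrays that share no array: Foxo3aKO minus WT, where Fancd2 is present, and DKO minus Fancd2KO, where it is absent. Across the 12041 genes these differences did not track each other, with Pearson r -0.06 and Spearman rho -0.01, a description over genes that are not independent. Foxo3aKO minus WT was at least 2-fold higher in 218 genes (1.81%) and lower in 156 (1.3%). DKO minus Fancd2KO was at least 2-fold higher in 181 genes (1.5%) and lower in 182 (1.51%). The genes 2-fold higher in both were 19, which is 8.72% of the first list and 10.5% of the second. They included Clec4a3, Cd300c2, Klra17, Ly86, Mpeg1, Pilrb1, Sirpb1a, Sirpb1c, Slc11a1 and Tlr8. The genes 2-fold lower in both were 6 (3.85% and 3.3%): Castor2, Dntt, Hmgn5, Prg3, which encodes an eosinophil granule protein, and 2 that the rule does not name. More genes, 42, were 2-fold higher in the first and 2-fold lower in the second (19.3% and 23.1%), and 11 the reverse (7.05% and 6.08%).

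Of the 61 genes 2-fold higher in the mean, 19 reached 2-fold in both pairs, 12 only in Foxo3aKO minus WT and 30 only in DKO minus Fancd2KO. The difference was the larger in the DKO pair for 41 of the 61. Of the 26 lower genes, 5 reached 2-fold in both pairs, 11 only in the first and 10 only in the second. Whether the pairs differ was not tested, since each is 1 array against 1. Clec4a3 shows the unequal sizes, at 1.27 log2 in the first pair and 4.78 in the second. Pilrb1 shows equal ones, at 1.90 and 1.77, and Dntt at -2.17 and -1.82.

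**Figure D2:**
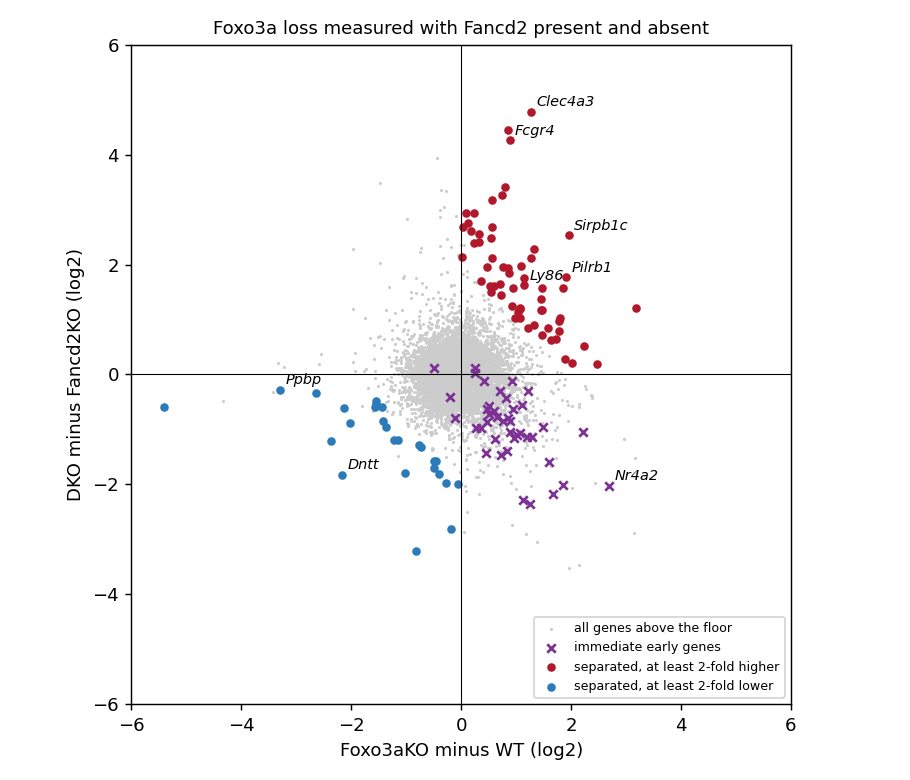
Each point is a gene above the floor, placed by its log2 difference Foxo3aKO minus WT (x axis) and DKO minus Fancd2KO (y axis); genes at least 2-fold in the mean are red (61 higher) or blue (26 lower) and immediate early genes are purple crosses. Clec4a3 lies high at 1.27 and 4.78, Pilrb1 near the diagonal, and Nr4a2 at 2.69 and -2.02 in the quadrant of opposite differences.

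Gene lists were then read as wholes, each by its members above the floor, beside 13.9% of all genes separated higher, 21.2% lower and an all-gene median difference of -0.03 log2. Of 36 monocyte and macrophage markers, 16 were higher on both null arrays and 0 lower, with a median difference of 0.57 log2. The median was 0.50 in Foxo3aKO minus WT, with 28 of 36 markers higher by any amount (44.6% of all genes), and 1.0 in DKO minus Fancd2KO, with 29 of 36 higher (47.4% of all genes). An earlier reading of these data had already named 11 of these markers. Without them, 8 of 25 were separated higher and 0 lower, with a median of 0.433 log2 (0.46 and 0.59 in the 2 pairs). Leaving out Foxo3aKO moved the median of the list to 1.02 log2.

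The members below the leading ones were named after their values were seen. Csf1r, the receptor for the macrophage growth factor CSF1, read 6.85 on WT, 6.36 on Fancd2KO, 7.18 on Foxo3aKO and 8.78 on DKO, a difference of 1.37 log2. Cx3cr1, the fractalkine receptor, read 8.04, 7.71, 8.63 and 9.33 (1.10). Ctss, a lysosomal cathepsin, read 9.28, 8.92, 9.81 and 10.52 (1.06). In all 3 the intact arrays were lowest, then Foxo3aKO, then DKO. Mpeg1, a pore-forming protein of phagocytes, read 7.59, 7.23, 8.65 and 8.41 (1.12), and Cd68, a lysosomal membrane protein, 8.59, 8.86, 9.44 and 9.86 (0.93). Treml4, a receptor of Ly6C-low monocytes, read 6.84, 6.29, 7.02 and 8.90 (1.40). The markers of classical monocytes were less clear. Ly6c2 read 11.63, 11.02, 12.10 and 11.26, Ccr2 7.84, 7.12, 8.21 and 7.04, and F13a1 7.88, 7.40, 9.05 and 6.67. In each of these 3 the null and intact arrays overlapped, Foxo3aKO being the highest array and DKO lying below WT. The complement genes C1qa (6.35, 6.21, 5.90, 7.31) and C1qb (6.84, 6.61, 5.93, 8.01) overlapped as well, with DKO alone high. Spic, a factor of red pulp macrophages, read 6.74, 5.72, 5.08 and 6.38.

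The linear signal summed over the 38 monocyte and macrophage markers on the array was 12510 on WT and 11800 on Fancd2KO, against 18070 on Foxo3aKO and 20330 on DKO. Of these markers 8, 7, 8 and 2 were under the floor in that order. Neutrophil markers had 6 of 25 members higher and 0 lower, a median of 0.25 log2, with 0.49 in the first pair and -0.03 in the second. Their summed signal was 49920 on WT, 42910 on Fancd2KO, 67610 on Foxo3aKO and 42790 on DKO, so Foxo3aKO alone was high, and the median of the list was -0.16 without that array, 0.39 without WT, 0.09 without Fancd2KO and 0.64 without DKO. Fcnb, a ficolin of myeloid precursors, read 9.34, 9.20, 10.06 and 9.86 (0.69), and Elane, neutrophil elastase, 10.11, 10.72, 10.79 and 11.11 (0.54). The gate was set against lineage-positive cells, and myeloid antigen transcripts were nonetheless present on every array. In bulk RNA, more cells of a type and more RNA per cell cannot be told apart. The part that myeloid cells in the sort had in the higher genes was not tested.

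**Figure D3:**
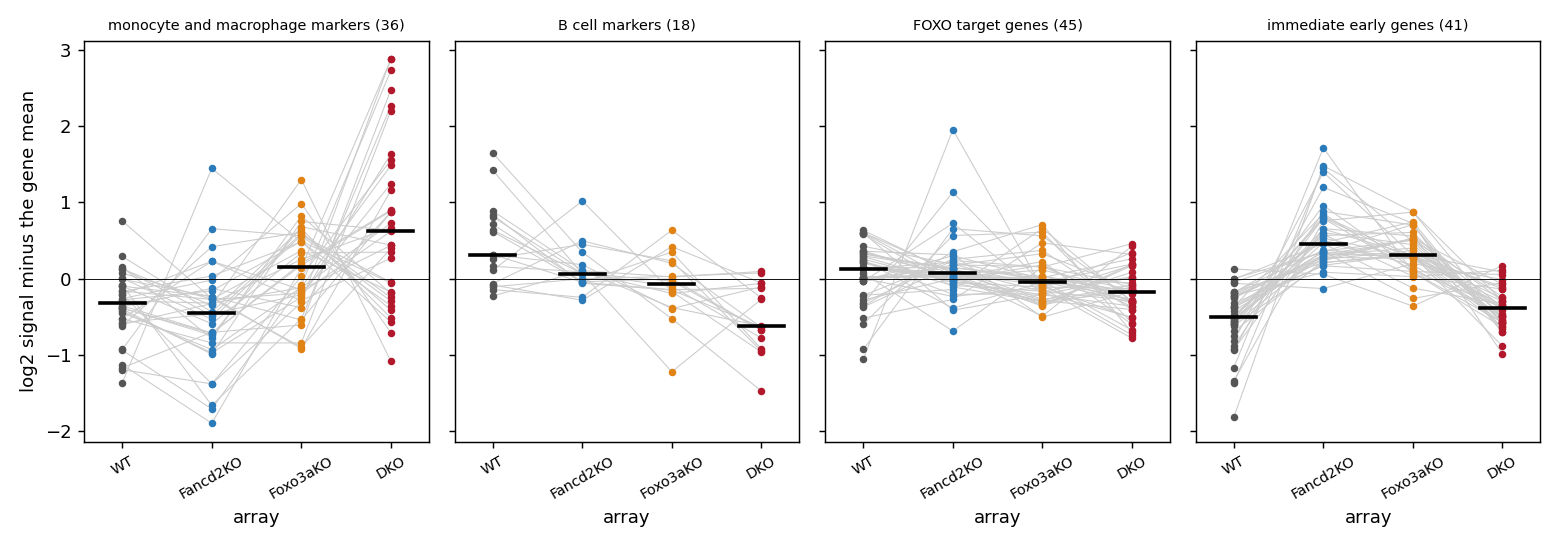
Log2 signal minus each gene's mean over the 4 arrays (y axis) for 36 monocyte and macrophage markers, 18 B cell markers, 45 FOXO target genes and 41 immediate early genes; points are genes, grey lines join a gene across arrays (x axis) and black bars are medians. Monocyte markers stand highest on DKO, B cell markers stand highest on WT and lowest on DKO, FOXO targets shift little, and immediate early genes stand high on Fancd2KO and Foxo3aKO.

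B cell markers lay on the lower side. Of 18 above the floor, 11 were lower on both null arrays and 2 higher, with a median of -0.62 log2 (-0.41 in Foxo3aKO minus WT and -0.60 in DKO minus Fancd2KO). Without the members an earlier reading had named, 8 of 15 were lower and 2 higher, with a median of -0.497. The median of the whole list was -0.38 without WT, -0.33 without DKO and -1.01 without Foxo3aKO. Pou2af1, a coactivator of immunoglobulin genes, read 7.84, 7.06, 6.58 and 6.33 (-1.0 ± 0.22). Ly6d, an early mark of B-lineage commitment, read 7.98, 7.24, 7.07 and 6.39 (-0.88 ± 0.18). Il7r, the interleukin 7 receptor chain, read 6.20, 5.64, 5.54 and 4.89 (-0.70 ± 0.25). In each of these the arrays ranked WT, Fancd2KO, Foxo3aKO, DKO from high to low, as for Dntt. Vpreb3, part of the pre-B receptor complex, read 6.97, 6.07, 5.98 and 5.50 (-0.78). The antigen receptor chain Cd79b read 8.70, 8.57, 7.99 and 8.28 (-0.50), while its partner Cd79a overlapped at 7.56, 6.81, 6.84 and 6.17. Pax5, the master factor of the B lineage, differed little, at 6.33, 6.26, 5.98 and 6.11 (-0.25). The higher members were Cd24a (0.36) and Fcer2a (0.11). The summed linear signal of the 23 markers on the array was 13380 on WT, 8122 on Fancd2KO, 8498 on Foxo3aKO and 7551 on DKO, so on that scale WT stood alone and the sides were not apart.

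The wider multipotent progenitor and lymphoid priming list had 9 of 33 members lower and 3 higher, with a median of -0.12 log2 that was -0.02 without WT, -0.20 without Fancd2KO and -0.07 without DKO. Of 56 stem cell genes, 13 were lower and 6 higher, shares near the background, with a median of -0.14 (-0.08 without Foxo3aKO). Tek, the angiopoietin receptor of stem and endothelial cells, read 6.99, 6.81, 6.44 and 5.74 (-0.81 ± 0.22). Hoxa9, a homeobox gene of stem and progenitor cells, read 7.67, 7.18, 6.70 and 6.90 (-0.62 ± 0.24). Both were lower on both null arrays, Tek chiefly on DKO. Trpc6, a cation channel, read 7.28, 7.32, 7.84 and 7.83 (0.54 ± 0.18). Endothelial and stromal markers had 7 of 17 members lower and 1 higher, with a median of -0.19 that was 0.03 without Fancd2KO, -0.39 without WT and -0.37 without DKO. Emcn, a sialomucin of endothelium, read 8.35, 7.93, 7.74 and 7.48 (-0.53 ± 0.19). Megakaryocyte and platelet markers had 7 of 22 lower and 2 higher, with a median of -0.01 that ranged from -0.28 without WT to 0.03 without Fancd2KO.

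Genes known as direct FOXO targets were more often lower than higher, by small amounts. Of 45 above the floor, 17 were lower on both null arrays (37.8%), 3 higher (6.67%) and 25 overlapped, with a median of -0.19 log2. The median was -0.15 in Foxo3aKO minus WT, where 29 of 45 were lower by any amount (55.4% of all genes), and -0.29 in DKO minus Fancd2KO, where 33 of 45 were lower (52.5% of all genes). None was 2-fold in the mean, and none passed the limma test. By role, the cell cycle inhibitor Cdkn1b, which encodes p27, read 9.35 on WT, 8.83 on Fancd2KO, 8.46 on Foxo3aKO and 8.34 on DKO (-0.69 ± 0.20). Cdkn1a, which encodes p21, overlapped at 7.21, 10.22, 8.14 and 7.48, with Fancd2KO alone high. Of the other inhibitors, Cdkn2c, which encodes p18, was higher at 6.68, 6.57, 7.25 and 7.21 (0.60 ± 0.18), with the arrays of each side close together.

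Several antioxidant and stress genes among the targets were lower. Sesn3 and Sesn1 encode sestrins, which restrain mTORC1. Sesn3 read 8.25, 7.62, 7.44 and 7.29 (-0.57 ± 0.21) and Sesn1 8.71, 8.53, 8.14 and 8.25 (-0.43 ± 0.19). Cat, catalase, read 9.20, 9.0, 8.71 and 8.58 (-0.45 ± 0.17), and Prdx3, a mitochondrial peroxiredoxin, 8.76, 8.57, 8.09 and 8.32 (-0.46 ± 0.20). In each, WT was the highest array and both null arrays were the lowest. Sod2, the mitochondrial superoxide dismutase, did not separate, at 7.88, 8.02, 7.89 and 7.69. Across all 31 antioxidant genes 10 were lower and 3 higher, with a median of -0.06 log2 that ranged from -0.13 without DKO to -0.001 without Fancd2KO. The highest of them was Slc7a11, the cystine importer, at 5.52, 5.78, 7.34 and 5.81 (0.93 ± 0.44), where Foxo3aKO alone was high.

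Of the autophagy targets, Gabarapl1, an ATG8 protein of autophagosomes, read 9.06, 9.01, 8.20 and 8.53 (-0.67 ± 0.19). Its relative Gabarapl2 read 7.61, 7.49, 7.04 and 6.69 (-0.68 ± 0.19). Bnip3, a mitophagy receptor, read 6.63, 6.39, 6.10 and 5.68 (-0.62 ± 0.21). Ulk1, the kinase that starts autophagy, read 8.19, 7.84, 7.52 and 7.75 (-0.38). The intact arrays of Gabarapl1 nearly coincided. Of all 34 autophagy genes, 11 were lower and 4 higher, with a median of -0.03 that was -0.14 without Foxo3aKO and -0.06 without DKO. Irs2, an insulin receptor substrate, read 6.55, 7.31, 6.40 and 6.07 (-0.69 ± 0.30). The 3 higher targets were Pmaip1, the BH3-only protein NOXA, at 5.19, 5.43, 6.17 and 6.02 (0.79 ± 0.25), Bcl6, a repressor, at 7.66, 6.90, 7.74 and 8.04 (0.61), and Cdkn1c, which encodes p57, at 5.72, 6.01, 6.02 and 6.27 (0.28). Genes upstream were near the background, with 6 of 32 lower and 3 higher in the FOXO and PI3K-AKT list. Pik3r5, a regulatory subunit of PI3K gamma, was higher at 6.66, 6.20, 7.10 and 7.08 (0.66 ± 0.21).

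**Figure D4:**
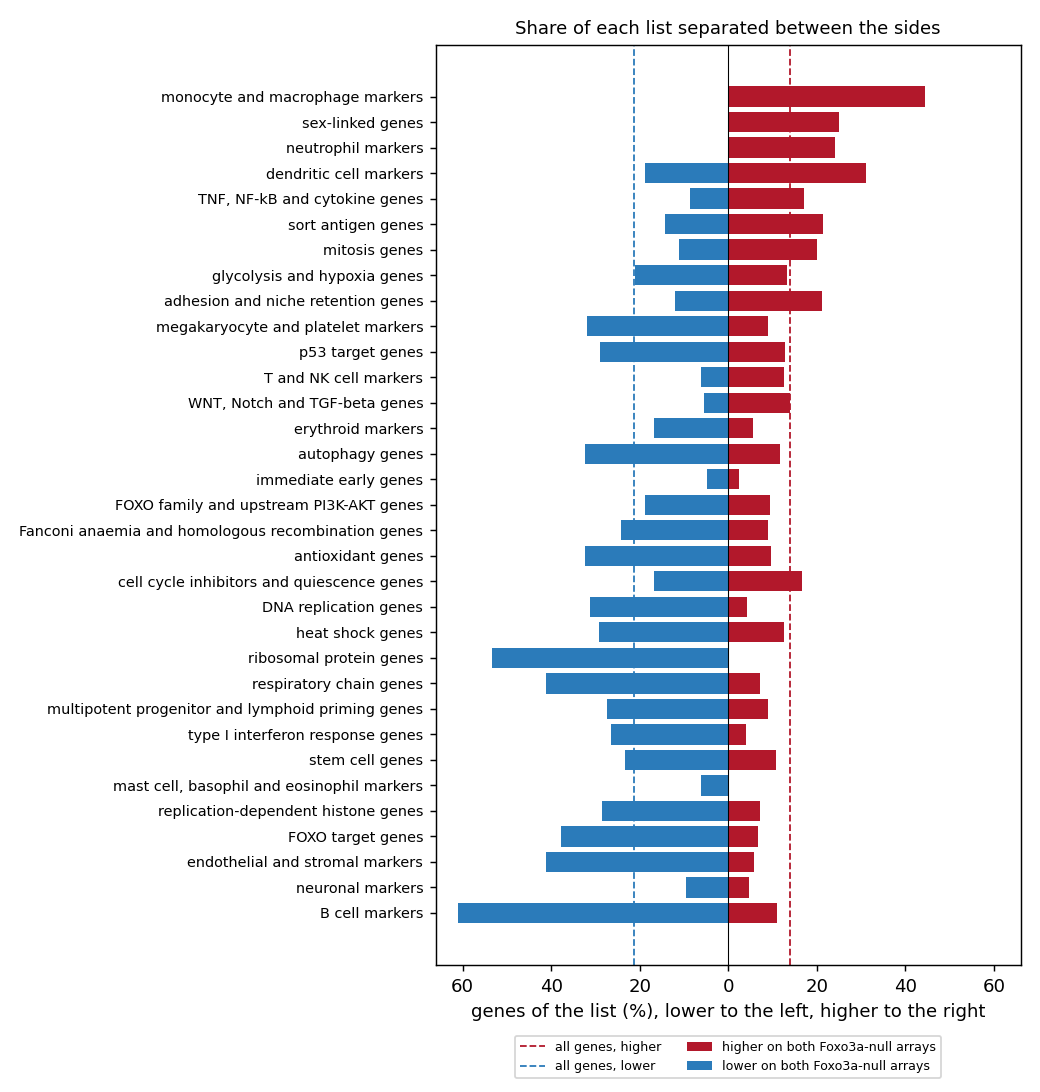
Share of each gene list (y axis) separated lower (bars to the left) and higher (bars to the right) on both Foxo3a-null arrays, in percent of the members above the floor; dashed lines are the shares among all 12041 genes, 21.2% lower and 13.9% higher. The B cell list reaches farthest to the left (61.1%), followed by ribosomal protein genes (53.3%), endothelial and stromal markers (41.2%), respiratory chain genes (41.1%) and FOXO targets (37.8%), with further lists past the line; the monocyte and macrophage list reaches farthest to the right (44.4%), followed by dendritic cell markers (31.2%).

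Ribosomal and respiratory chain genes showed small, one-sided differences. The all-gene median difference itself moved with the scaling, from -0.013 after cyclic loess to -0.083 with each array centred on its median. Differences of this size therefore depend in part on the scaling. Of 45 ribosomal protein genes 24 were lower on both null arrays and 0 higher, with a median of -0.11 log2. Rpl32 read 12.03, 12.39, 11.64 and 11.86 (-0.46 ± 0.09) and Rpl22 8.04, 8.21, 7.73 and 7.76 (-0.39 ± 0.19). Other members were separated by very little, such as Rpl38 at 12.32, 12.32, 12.29 and 12.31. Of 56 respiratory chain genes, 23 were lower and 4 higher (-0.11). Cox7c, of complex IV, read 7.13, 7.22, 6.50 and 6.55 (-0.64 ± 0.18). Atp5h, of the ATP synthase, read 10.34, 10.46, 9.99 and 9.91 (-0.45 ± 0.15), and Cycs, cytochrome c, 10.06, 10.10, 9.75 and 9.70 (-0.36 ± 0.15). In these 3 the arrays of each side lay close together. The median of the respiratory list was -0.07 without Foxo3aKO. DNA replication genes had 15 of 48 lower and 2 higher, with a median of -0.09 (-0.05 without Foxo3aKO, -0.15 without DKO). Mitosis genes had 5 of 45 lower and 9 higher, with a median near 0 whose sign turned without Fancd2KO.

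Type I interferon response genes had 13 of 49 members lower and 2 higher, with a median of -0.12. The median was -0.39 in Foxo3aKO minus WT but 0.08 in DKO minus Fancd2KO, and it was -0.02 without WT, -0.04 without Foxo3aKO, -0.26 without Fancd2KO and -0.24 without DKO. Bst2, the virion tether tetherin, read 8.14, 8.37, 7.30 and 7.41 (-0.90 ± 0.19), and Oas2, a sensor of double-stranded RNA, 8.28, 8.36, 7.55 and 7.66 (-0.71 ± 0.18). Isg15, a ubiquitin-like modifier, read 6.72, 6.29, 5.47 and 5.99 (-0.77 ± 0.29). These genes were low on both null arrays. Others overlapped, such as the factor Irf7 at 7.80, 7.18, 6.94 and 7.23.

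Other lists stood near the background although some of their members were separated by larger amounts. Of 33 adhesion and niche retention genes, 7 were higher and 4 lower, with a median of -0.01 that was 0.06 without Fancd2KO and above 0 without each other array. The higher ones included the leukocyte integrin chains Itgal, at 7.42, 6.97, 7.96 and 8.47 (1.02 ± 0.28), and Itgb2, at 9.79, 9.11, 10.32 and 10.16 (0.79 ± 0.19), which pair as LFA-1. Itga4, a chain of VLA-4 that holds stem cells in the niche, read 8.92, 8.37, 9.23 and 9.33 (0.63 ± 0.22). In all 3, Fancd2KO was the lowest array. Of 24 heat shock genes, 3 were higher and 7 lower, with a median of -0.10 that was -0.21 without WT, -0.01 without Fancd2KO and -0.06 without Foxo3aKO. The inducible chaperone Hspa1b read 7.85, 8.55, 9.87 and 8.77 (1.12 ± 0.43), with Foxo3aKO highest, while the HSP90 co-chaperone Ahsa1 read 9.68, 9.85, 9.11 and 9.19 (-0.61 ± 0.16). Of 33 Fanconi anaemia and homologous recombination genes, 8 were lower and 3 higher, with a median of -0.06 (-0.04 without DKO). The helicase Brip1 read 6.22, 6.53, 6.91 and 6.77 (0.47 ± 0.21). Of 16 T and NK cell markers, 2 were higher and 1 lower, and Cd3d, a chain of the T cell receptor complex, read 6.40, 6.89, 8.64 and 7.40 (1.37 ± 0.42), Foxo3aKO being the high array. The platelet genes Pf4, at 7.25, 7.59, 6.72 and 7.10, and Gp9, at 7.99, 7.92, 7.49 and 7.40, both had a difference of -0.51.

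In some lists the 2 pairs ran opposite ways, and the median of the mean difference turned with the array left out. Immediate early genes, which cells switch on within minutes of a stimulus, had a median of -0.04 (-0.51 without WT, 0.42 without Fancd2KO, -0.43 without Foxo3aKO, 0.30 without DKO), from 0.83 in Foxo3aKO minus WT (38 of 41 higher) and -0.87 in DKO minus Fancd2KO (38 of 41 lower). Egr1, a zinc finger factor of this class, read 8.57 on WT, 10.71 on Fancd2KO, 10.24 on Foxo3aKO and 8.53 on DKO. Nr4a2, an orphan nuclear receptor, read 6.62, 9.92, 9.31 and 7.89. Both single knockouts were high, and WT and DKO were low. Neuronal markers ran likewise, with a median of 0.48 in the first pair and -0.77 in the second. Their median in the mean difference was -0.35, and it was -0.75 without WT, 0.37 without Fancd2KO and -0.05 without DKO. Pcp4, a calmodulin regulator of neurons, read 4.95, 8.67, 8.09 and 5.78. Erythroid markers ran the other way, at -0.48 and 0.44, with the carbonic anhydrase Car1 at 8.87, 7.45, 7.39 and 9.48. Replication-dependent histone genes had -0.61 and 0.18, and their median in the mean difference, -0.19, was 0.06 without WT, -0.58 without Fancd2KO and -0.12 without Foxo3aKO. Egr1, Nr4a2, Pcp4 and Car1 were not separated, and the difference between the pairs was not tested.

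**Figure D5:**
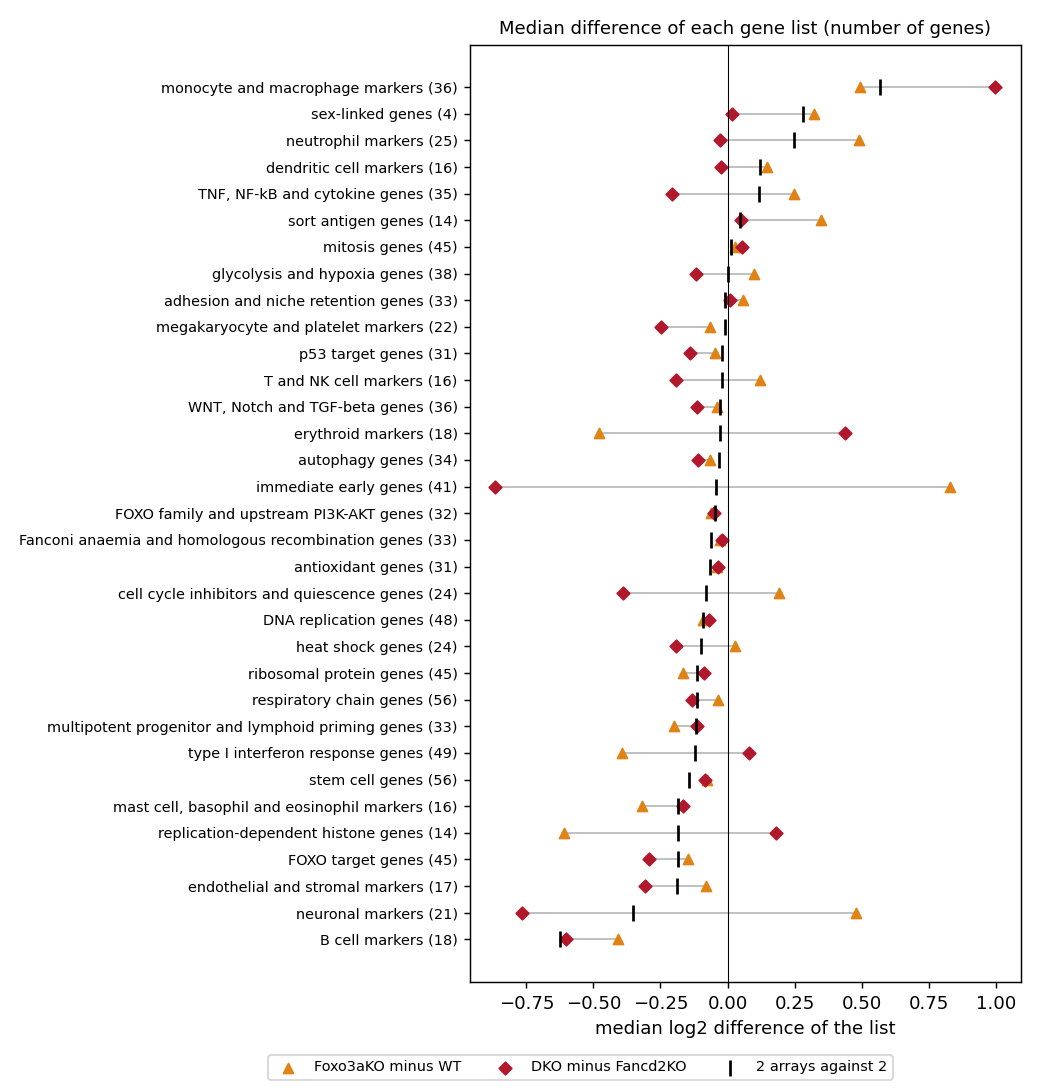
Median log2 difference (x axis) of each gene list (y axis, number of members above the floor in brackets) for Foxo3aKO minus WT (triangles), DKO minus Fancd2KO (diamonds) and the mean of 2 arrays against 2 (bars). The monocyte list lies to the right at 0.50 and 1.0, the B cell list to the left at -0.41 and -0.60, and the immediate early list is split at 0.83 and -0.87.

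MicroRNA loci were read apart from the rule for named genes, after their values were seen. Of 136 loci above the floor, 38 were separated higher (27.9%, against 13.9% of all genes) and 13 lower (9.56%, against 21.2%). Lower genes made up 60.3% of all separated genes above the floor but 49.5% with no floor, so the balance of directions varies with brightness. The loci were not set against genes of like brightness. Separated and 2-fold were 6 loci (4.41%), against 87 of the 12041 genes in either direction (0.507% higher and 0.216% lower). Of the loci, Mir99a, Mir1927 and Mir1941 were higher and Mir467f, Mir5098 and Mir5123 were lower. The Mir99a locus read 4.63 on WT, 6.52 on Fancd2KO, 7.81 on Foxo3aKO and 7.73 on DKO, a difference of 2.20 log2. Its WT value was under the floor, and its difference was 1.76 log2 with that value raised to it. Mirlet7c-1 and Mir125b-2, also on chromosome 16, were under the floor on every array. Mir99b, whose mature strand shares the seed ACCCGUA, read 7.50, 7.73, 7.74 and 7.81 (0.16), so its sides were barely apart. Mir17 read 7.29, 7.16, 6.66 and 6.10 (-0.85) and Mir18 7.10, 6.84, 6.34 and 6.09 (-0.76). Mir20a, of the same cluster on chromosome 14 and with the seed of miR-17-5p, overlapped at 6.05, 4.65, 6.86 and 3.82. The loci of each pair with a shared seed thus had unlike values.

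Promoter sequence was a property that the separation did not use. In windows from 250 bases before to 50 bases after the start, GTAAACA or TGTTTAC occurred in 3.65% of all 32851 promoters and in 2.6% of those of genes above the floor. It occurred in 0 of 50 promoters of the 2-fold higher genes and 0 of 17 of the 2-fold lower genes. Among the FOXO targets 5 of 42 promoters held it (11.9%), those of Bcl2l11, Btg1, Mxi1, Sesn1 and Txnip. Only Sesn1 of these 5 was separated. The PU.1 core, searched after the myeloid genes had been seen, occurred in 3.26% of promoters of genes above the floor. It occurred in 5 of 50 promoters of the 2-fold higher genes, namely Bcl2a1a, Cd300ld, Ctss, Fcgr4 and Pld4, and in 0 of 17 of the lower genes. A match is a string of letters in this window and not evidence of binding.

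Position was likewise not used. Among the 50 measured genes nearest to Foxo3 on chromosome 10, 25 on each side, 24 were separated (48.0%), 13 higher and 11 lower. The share was 38.6% of 604 genes of that chromosome, these 50 included, and 35.2% of all 12041 genes. None of the 50 was 2-fold. Sesn1 is the measured gene directly before Foxo3 in chromosome order. The strains behind the alleles are not given in the sources used here.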

How the data were processed

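Values were log2 signals made by the authors, deposited as 1 column per array for 41345 probe sets. Per the submitters' processing notes, Affymetrix Expression Console was used. Its version, the summarisation and any filter are not given in the sources used here. At equal rank the arrays differed from their mean by at most 0.0889 log2, and no further normalisation was applied. Of the probe sets, 23521 had 1 gene symbol in the platform annotation, 1814 had several and 16010 were unnamed; control probe sets carry no gene. The brightest probe set stood for each of 22180 genes. The floor was the median gene value.

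The mean difference was fitted with limma 3.58.1 in R 4.3.3 (Foxo3a and Fancd2 status, eBayes with trend, Benjamini-Hochberg over 12041 genes). The fit was tried on simulated arrays with the same spread for every gene and no departure from additivity beyond that noise. That trial does not show how the fit behaves on these arrays. With 1 array per genotype the residual of the fit is the departure from additivity, and the number of arrays limits the precision. Gene lists are described by counts and medians. Named were Foxo3 and Fancd2, the 15 largest differences and 5 widest further gaps in each direction, up to 4 separated members of each of 33 lists, members of lists of opposite sign, and the genes at the threshold, leaving out predicted genes, small RNAs, antigen receptor segments and chemosensory receptors. Names outside this rule were chosen after their values were seen. The genes and lists were chosen with earlier results of these data known. Alternatives were other normalisations, no floor, raised dim signals, averaged probe sets, 1.5-fold, other limma settings and each array left out.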

Additional observations from a re-analysis of the deposited data

Results flagged for a closer look

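A difference of Foxo3a-null minus intact was flagged where it ran in opposite directions with Fancd2 present (Foxo3aKO minus WT) and absent (DKO minus Fancd2KO), with both differences at least 0.1 log2 in size for a list median and at least 1 log2 for a gene. Each direction rests on 1 array against 1, and the difference between the directions was not tested. The second difference minus the first, in log2 and over list medians, was -1.693 for immediate early genes, -1.244 for neuronal markers and -0.581 for cell cycle inhibitors and quiescence genes. It was -0.454 for TNF, NF-kB and cytokine genes and -0.314 for T and NK cell markers. It was 0.918 for erythroid markers and 0.793 for replication-dependent histone genes.

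Among immediate early genes the value was -4.715 for Nr4a2, -3.867 for Nr4a1, -3.851 for Egr1 and -3.597 for Socs3. These are transcription factors, apart from Socs3, an inhibitor of cytokine signalling. Of the inflammatory genes, it was -4.691 for the decoy receptor Il1r2, -4.138 for the chemokine Ccl2 and -4.08 for Ptgs2, the cyclooxygenase that makes prostaglandins. Of the neuronal markers, it was -8.386 for Cdr1, -6.026 for Pcp4, -5.616 for Snap25 and -5.491 for Cpe. For Car1, a carbonic anhydrase of red cell precursors, it was 3.512. None of these genes separated the Foxo3a-null from the intact arrays.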

How the results depend on the processing

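The counts of 61 higher and 26 lower genes stayed within 1.5 times under other normalisations, no floor, raised dim signals and averaged probe sets. A 1.5-fold threshold gave 228 higher and 240 lower. With an array left out, 2 arrays against 1, they ranged from 112 to 173 higher and from 49 to 115 lower. The limma calls were 0 in all fits on 4 arrays. The fits with an array left out had no Fancd2 term and 1 array on a side, so their calls are not set beside these. The lower share of the separated genes was 49.5% with no floor. The correlation of the pairs ranged from -0.0633 to -0.0379. A list median under an alternative counted as kept when its change was within a tolerance set by the difference between its medians in the 2 pairs. Lists whose pairs ran apart had a wide tolerance, so the count of kept medians does not measure stability. By this rule 262 were kept, 62 moved and 8 of lists with a median of at least 0.1 reversed, all 8 with an array left out. Smaller medians turned as well. The medians then ranged from -0.019 (without WT) to 0.256 for TNF genes, from -0.576 to 0.055 (without WT) for histone genes, from -0.682 to 0.182 (without WT; 0.03 without DKO) for mast cell, basophil and eosinophil markers, from -0.389 to 0.034 (without Fancd2KO) for endothelial markers and from -0.752 to 0.368 (without Fancd2KO) for neuronal markers. They ranged from -0.163 (without Foxo3aKO) to 0.644 for neutrophil markers and from -0.138 (without Foxo3aKO) to 0.212 for dendritic cell markers. The causes were not tested.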
